A study of Mus musculus with 4 samples.

Results

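The uroplakin family was examined in luminal cells of the mouse mammary gland sequenced one by one. Its 5 members, *Upk1a*, *Upk1b*, *Upk2*, *Upk3a* and *Upk3b*, were taken by gene symbol from the 52636 genes of the table. The family was chosen on the level of *Upk3a*, which differed widely between the clusters of these same cells in earlier results, so its levels by cluster are a description and carry no test. Luminal cells were sorted from the pooled thoracic and abdominal glands of 3 mice per genotype, aged 6 weeks and on a C57BL/6N background. The ErbB3+/+;MMTV-Cre mice (WT) and the ErbB3V943R/V943R;MMTV-Cre mice (V943R) all carried MMTV-Cre, a transgene that drives Cre in mammary epithelium. In the V943R mice, Cre exchanges the normal *Erbb3* sequence for one encoding a receptor that activates its partner poorly, and the share of cells in which this had happened was not measured here. Each genotype was 1 pool sequenced as 2 droplet libraries, called A and B below with no pairing between genotypes, so the libraries were technical samples and no test between genotypes was possible.

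The uroplakins are membrane proteins that cover the apical surface of the urothelium, the lining of the bladder. *Upk1a* and *Upk1b* encode tetraspanins, and *Upk2*, *Upk3a* and *Upk3b* encode partners that cross the membrane once. In umbrella cells, the outermost cells of the urothelium, the *Upk1a* product pairs with that of *Upk2* and the *Upk1b* product pairs with that of *Upk3a* or *Upk3b*, and the pairs pack into rigid plaques. *Upk3a* also marks a rare type of airway club cell, and *Upk3b* is known from mesothelium.

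The libraries held between 6849 and 9627 cells and between 30019745 and 38009351 UMIs, the molecular barcodes by which captured mRNA molecules are told apart. The median cell had between 3154 and 4027 UMIs. The level of a gene is its summed UMIs per 1000000 UMIs of the same cells (CPM). The libraries counted the 3′ end of each molecule, so CPM was not divided by gene length. All intervals are 95% intervals, exact Poisson for levels, exact binomial for shares and log2 ratios, and cover counting error only. For a count of 0, the upper limit given is the share that 3 counts would make. Any pair of libraries shared between 71 and 111 cell barcodes. The deposited classes were luminal progenitor (LP, clusters 1 and 2), luminal intermediate (LI, cluster 3) and mature luminal (ML, clusters 4 to 11), with clusters 12 and 13 labelled as rare. In WT, *Krt18*, a luminal keratin, stood at 9150 CPM in ML and *Epcam*, a surface protein of epithelium, at 1671 CPM. Over all cells, basal markers summed to at most 20.8 CPM in any library. Mesothelial markers, which included the member *Upk3b*, summed to at most 0.0789 CPM. *Erbb3* stood at 62.1 CPM in WT and 30.4 CPM in V943R, a log2 ratio of −1.03 (−1.11 to −0.96). The paper describes that the knock-in allele, before Cre acts, ends in a human growth hormone 3′ sequence. Counts of 3′ ends may miss transcripts of that form. The ratio is thus one of counted ends, and the amount of all *Erbb3* mRNA was not tested.

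The members lie on 5 chromosomes (GRCm38), and no annotated gene overlaps any of them. *Upk3a* (ENSMUSG00000022435, chromosome 15 from 85017141 to 85022547, plus strand, 6 exons) carried nearly all uroplakin UMIs, and *Upk3b* (ENSMUSG00000042985, chromosome 5 from 136038496 to 136046487, plus strand, 6 exons) carried the fewest. The 250 bases before the start of each are therefore set side by side from RefSeq on GRCm38.p6, which gave a promoter for 3 of the 5 members (*Upk1a*, *Upk3a* and *Upk3b*). The *Upk3a* window is chr15:85016891-85017140 and the *Upk3b* window is chr5:136038246-136038495, both on the plus strand and written 5′ to 3′. Capitals mark every match, on either strand, to 6 motifs that were searched: AGATAA, known from zinc finger factors such as Gata3, TGTTTAC, known from forkhead factors, AGGTCA, known from nuclear receptors, TATAAA, found in core promoters, CACGTG, the E-box, and GGGCGGG, known from KLF and SP factors. No matches overlapped.
Upk3a: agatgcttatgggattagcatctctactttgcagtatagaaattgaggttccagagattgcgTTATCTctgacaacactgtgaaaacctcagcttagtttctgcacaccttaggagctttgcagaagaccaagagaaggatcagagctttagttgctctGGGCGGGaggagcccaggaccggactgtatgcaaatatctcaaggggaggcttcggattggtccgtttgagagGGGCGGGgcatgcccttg
Upk3b: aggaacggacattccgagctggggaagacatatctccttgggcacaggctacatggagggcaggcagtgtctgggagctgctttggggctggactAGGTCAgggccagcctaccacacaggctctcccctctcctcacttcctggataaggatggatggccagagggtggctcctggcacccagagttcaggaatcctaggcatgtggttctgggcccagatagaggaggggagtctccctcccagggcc
The *Upk3a* window held AGATAA on the minus strand at position −188, counted back from −1 at the base before the gene, and GGGCGGG on the plus strand at positions −91 and −18. The *Upk3b* window held AGGTCA at position −155 and none of the other 5 motifs. Of 32851 mouse promoter windows of the same length, 9.99% held AGATAA, 3.17% TGTTTAC, 14.02% AGGTCA, 12.4% TATAAA, 6.02% CACGTG and 23.4% GGGCGGG. A match describes these letters only and says nothing of a factor being bound. G and C made up 49.6% of the *Upk3a* window and 60.8% of the *Upk3b* window, against a median of 52.4% over all windows.

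The tetraspanin members were close to absent. *Upk1a* (ENSMUSG00000006313, chromosome 7 from 30603092 to 30612847, minus strand) gave 21 and 22 UMIs in WT and 18 and 19 in V943R, always 1 UMI in a cell, for a level of 0.590 CPM (0.468 to 0.735) over all 32439 cells. The 4 libraries overlapped. *Upk1b* (ENSMUSG00000049436, chromosome 16 from 38773184 to 38800328, minus strand) gave 11 and 7 UMIs in WT and 4 and 1 in V943R, or 0.170 CPM (0.108 to 0.255) over all cells. With 18 UMIs in WT and 5 in V943R, *Upk1b* was too sparse to compare, and its log2 ratio of −1.62 (−3.41 to −0.14) ran from −3.00 without V943R library A to −0.89 without V943R library B. Of the 80 cells with a *Upk1a* UMI, 51 also had a *Upk3a* UMI and 22 a *Upk2* UMI. Of the 23 cells with a *Upk1b* UMI, 12 also had a *Upk3a* UMI, and 18 were ML cells. ML made up 76.1% of all WT cells and 69.6% of all V943R cells. The cells that held *Upk1a* were deeper than most, with a median of 4942 UMIs. These joint counts were not set against cells of like depth, so no pairing is read from them.

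Among the partners, *Upk3a* gave 324661 UMIs, *Upk2* 7067 and *Upk3b* 1. The *Upk3b* UMI came from an LI cell of WT library B with 24143 UMIs. In V943R no *Upk3b* UMI was found in 13801 cells, which allows a share of cells with a UMI of up to 0.0217%. *Upk3a* ranked 35th by WT level among the 32271 genes with a UMI, while *Upk1b*, whose product pairs with that of *Upk3a* in the bladder, gave 23 UMIs in all.

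By library, *Upk3a* stood at 2482 and 2670 CPM in WT and at 2157 and 2204 CPM in V943R. By class it was highest in ML, at 2881 and 3103 CPM in WT and 2621 and 2673 CPM in V943R. LI was next, at 1653 and 1734 CPM in WT and 1289 and 1597 CPM in V943R. LP was lowest, at 629 and 618 CPM in WT and 513 and 390 CPM in V943R. The ML cells held 90.3% of the WT *Upk3a* UMIs and 77.7% of all WT UMIs. The order of the classes was the same in all 4 libraries, with no overlap between classes.

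Within ML, *Upk3a* spanned a range far wider than that between classes. Cluster 5 had the highest level, with 7168 and 7398 CPM in WT and 5978 and 5941 CPM in V943R. Cluster 6 followed, at 6601 and 6666 CPM in WT and 5424 and 5454 CPM in V943R, and cluster 7 came next, at 4617 and 4819 CPM in WT and 3156 and 3444 CPM in V943R. These 3 clusters kept this order in every library. Cluster 5 held 17.03% of the WT *Upk3a* UMIs in 6.03% of all WT UMIs, cluster 6 held 19.7% in 7.67% and cluster 7 held 28.2% in 15.4%.

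The next clusters lay close together. *Upk3a* was at 1817 and 2297 CPM in cluster 4, 1948 and 2267 CPM in cluster 8, and 1653 and 1734 CPM in LI cluster 3 of the WT libraries. Cluster 9 was at 1200 and 1698 CPM and cluster 11 at 1528 and 1410 CPM. Clusters 4 and 8 overlapped in their WT libraries, as did clusters 9 and 11 with each other and clusters 3 and 9. Cluster 10 stood apart at the bottom, with 188 and 184 CPM in WT and 191 and 171 CPM in V943R, below the LP clusters although it is an ML cluster. It held 1.04% of the WT *Upk3a* UMIs in 14.5% of the WT UMIs. A doublet score measures how much a droplet looks like a mix of cells. With the top 6% of cells by this score left out, cluster 1 fell to 347 and 212.2 CPM in WT and 222.4 and 134 CPM in V943R and cluster 10 stood at 167 and 185 CPM and 149 and 164 CPM, so in V943R library B the order of these clusters turned.

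**Figure D1:**
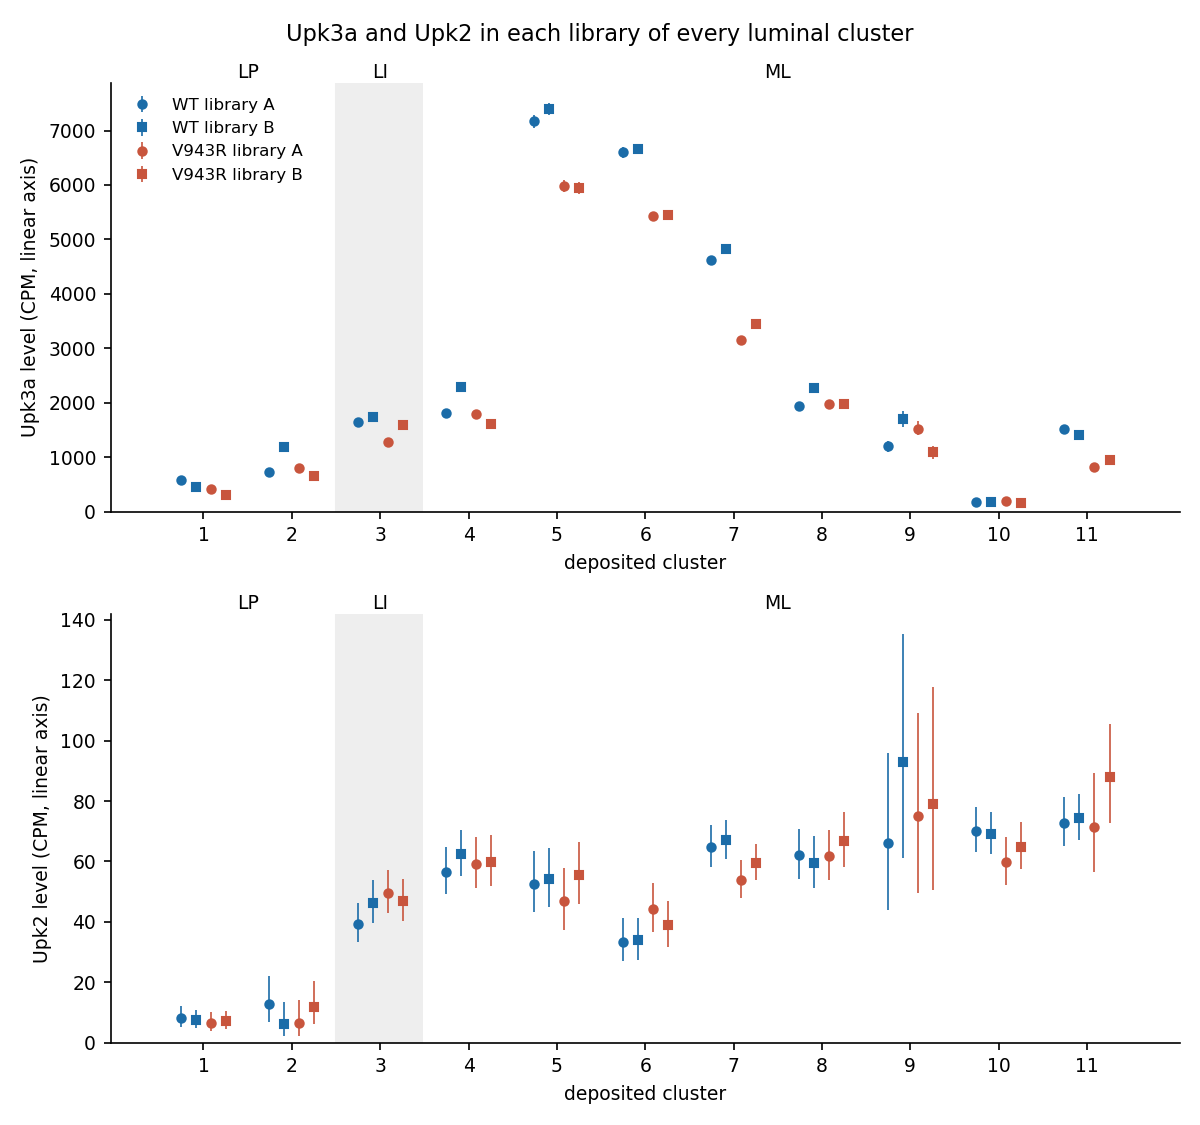
Level of *Upk3a* (top) and *Upk2* (bottom) in CPM on linear axes, for each library in luminal clusters 1 to 11, with 95% Poisson intervals as bars. *Upk3a* peaks in clusters 5, 6 and 7 and is near 180 CPM in cluster 10, whereas *Upk2* is low in LP and lies between 33.5 and 93.0 CPM in every ML cluster.

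The low levels were set against clusters 12 and 13, which lie outside the luminal classes. There *Upk3a* was at 321 CPM (225 to 444) and 1872 CPM (1711 to 2043) in WT. With every cell cut down to 1000 randomly drawn UMIs (thinned), a *Upk3a* UMI was found in 11.6% (3.89 to 25.1) of 43 WT cells of cluster 12, 20.5% (12.4 to 30.8) of 83 of cluster 13, 11.8% (10.6 to 13.1) of 2696 of cluster 10 and 14.9% (13.7 to 16.2) of 3149 LP cells. The median depths before thinning were 1985, 1899, 3663 and 2018 UMIs. The shares in cluster 10 and in LP lay within or below the intervals of these small clusters, so no expression was read from them. The pooled WT level in cluster 13 was 62.5% of that in ML. Unthinned, these shares were 37.2%, 34.9%, 34.9% and 28.1%. The WT level in LP was 20.8% of that in ML for *Upk3a* and 13.2% for *Upk2*, and for 6 markers of mature luminal cells it lay between 9.26% (*Areg*, a growth factor) and 23.6% (*Esr1*, the estrogen receptor). Leaving out the 6% of cells with the highest doublet score lowered *Upk3a* in LP from 623 to 339 CPM in WT and from 446 to 194 CPM in V943R, and left ML at 2994 and 2659 CPM. The remaining part of free RNA or of doublets in the LP level was not tested.

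*Upk3a* was very unevenly spread over cells. The 10% of cells with the most *Upk3a* UMIs held between 61.7% and 63.6% of its UMIs in the 4 libraries, and 1 cell held 218. *Upk3a* made up over 1% of all UMIs of a cell in 6.53% and 6.84% of WT cells by library, and in 4.16% and 4.62% of V943R cells. After thinning, 53.4% of the WT ML cells had no *Upk3a* UMI and 9.68% had 10 or more. In cluster 5 of WT these shares were 13.8% and 35.5%, in cluster 6 8.74% and 29.1%, in cluster 7 32.7% and 18.8%, and in cluster 11 56.5% and 2.72%. Cluster 7 thus held cells with none and cells with many. The variance of the thinned UMIs divided by their mean was 8.10 for *Upk3a* in WT ML and 1.06 for *Upk2*, where 1 is what counting alone gives. For *Upk3a* this ratio was 4.98 in cluster 5, 4.07 in cluster 6, 7.32 in cluster 7 and 1.89 in cluster 10, so cells varied within clusters as well as between them.

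**Figure D2:**
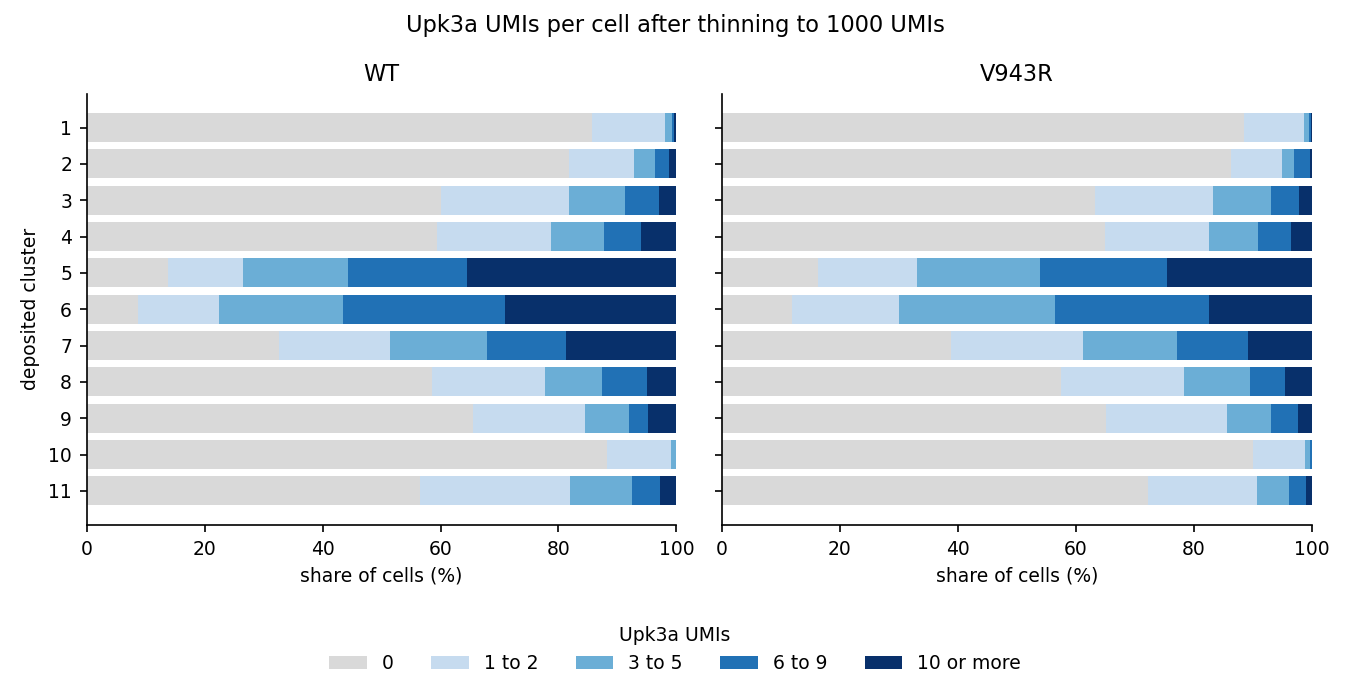
Share of cells (%) with 0, 1 to 2, 3 to 5, 6 to 9 and 10 or more *Upk3a* UMIs in clusters 1 to 11, after thinning each cell to 1000 UMIs, in WT (left) and V943R (right). Clusters 5 and 6 have the fewest cells at 0 and cluster 7 spans all 5 ranges, while over 85% of the cells of clusters 1 and 10 are at 0.

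*Upk3a* was higher in cells that carried a UMI of *Mki67* or *Top2a*, genes expressed in dividing cells. This split was chosen after the data had been seen. In ML, *Upk3a* stood at 5953 and 6095 CPM in the WT cells with such a UMI and at 2248 and 2402 CPM in those without, by library, and at 4803 and 5017 against 1967 and 2013 CPM in V943R. The cells with such a UMI were deeper, with a median of 5252 against 3390 UMIs in WT. Of the 1709 WT ML cells with a *Mki67* or *Top2a* UMI, 519 were in cluster 5 and 690 in cluster 6. There *Upk3a* differed little with the split, with log2 ratios of −0.02 and −0.10 in WT and of −0.10 and 0.13 in V943R. In clusters 4, 7, 8 and 11 *Upk3a* was higher with such a UMI, with WT log2 ratios of 0.92, 0.26, 0.88 and 0.94. Without the cells of highest doublet score, the WT levels were 3720 against 1952 CPM in cluster 4, 3704 against 1938 CPM in cluster 8 and 2678 against 1389 CPM in cluster 11. In cluster 7 they were 6046 against 4773 CPM. Cluster 10 depended more on those cells, going from 362 against 181 CPM to 239 against 175 CPM in WT. *Upk2* went the other way in ML, at 45.3 CPM with and 66.2 CPM without such a UMI in WT, a log2 ratio of −0.55. This difference was not steady within all clusters. In cluster 6, the lowest for *Upk2*, the pooled log2 ratio was 0.37 in WT and 0.44 in V943R, but the libraries differed widely. WT library A stood at 0.72 against 0.04 for WT library B, and V943R library B at 1.18 against −0.03 for V943R library A. The pooled cluster 4 ratio was 0.08 in each genotype, with libraries of opposite sign. These were −0.01 and 0.14 for WT, −0.11 and 0.21 for V943R. The libraries also differed in sign in clusters 7, 8 and 10, and in the WT libraries of cluster 11. Their pooled WT log2 ratios were −0.19, −0.53, −0.45 and −0.21. No direction was read from clusters 4, 6, 7, 8, 10 and 11. Of the ML clusters split, cluster 5 alone kept its sign in every library, with pooled ratios of −0.21 in WT and −0.33 in V943R. It held 235 *Upk2* UMIs in WT and 200 in V943R before the split, and nothing is read from its sign.

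**Figure D3:**
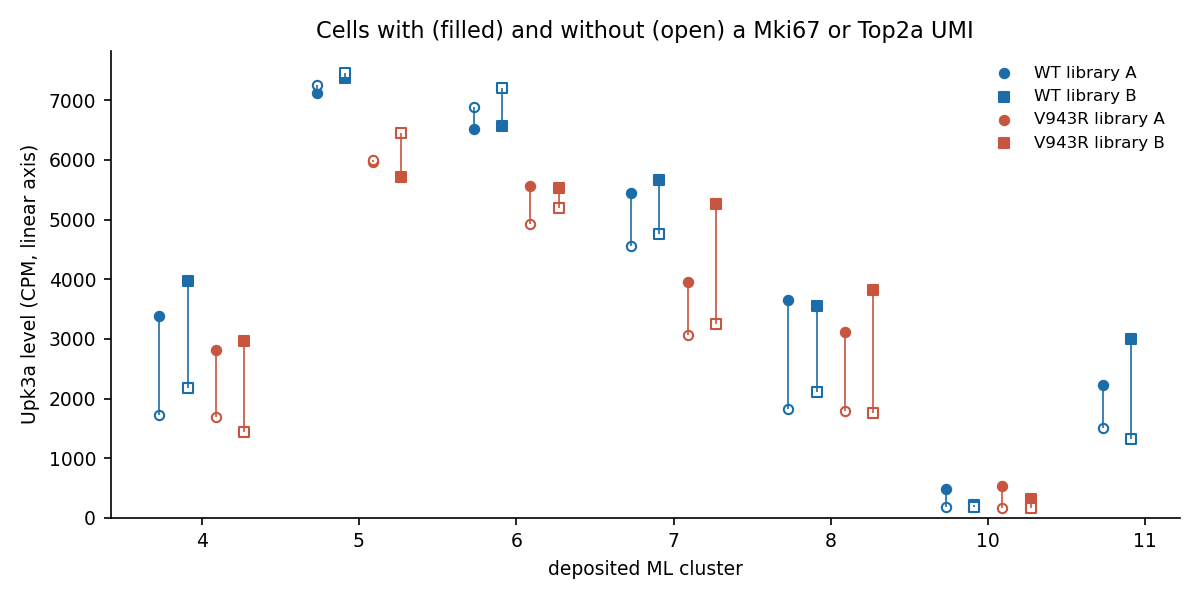
Level of *Upk3a* in CPM (linear axis) in cells with (filled) and without (open) a *Mki67* or *Top2a* UMI, for each library and ML cluster with at least 20 such cells. The filled points lie above the open ones in clusters 4, 7, 8, 10 and 11 and below them in cluster 5, cluster 6 differs by genotype, and the V943R libraries of cluster 11 and all libraries of cluster 9 had too few such cells.

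*Upk2* (ENSMUSG00000041523, chromosome 9 from 44452715 to 44454976, minus strand), whose product pairs with that of *Upk1a* in umbrella cells, was low but spread over all ML clusters. By library it stood at 53.1 and 54.7 CPM in WT and 48.8 and 51.2 CPM in V943R, with at most 5 UMIs in a cell. In ML it was at 61.7 and 63.1 CPM in WT and 56.4 and 60.7 CPM in V943R. LI had 39.3 and 46.2 CPM in WT and 49.7 and 46.8 CPM in V943R, and LP had between 6.58 and 9.41 CPM in the 4 libraries. In WT the lowest ML cluster for *Upk2* was cluster 6, at 33.5 and 33.9 CPM, and the next was cluster 5, at 52.5 and 54.1 CPM, the clusters with the most *Upk3a*. Clusters 7, 8, 10 and 11, which ranged for *Upk3a* from 184 to 4819 CPM, lay between 59.4 and 74.4 CPM for *Upk2* in WT. Cluster 9, of few UMIs, was at 66.2 and 93.0 CPM and could not be ordered against them. A thinned *Upk2* UMI was found in 6.15% (5.76 to 6.56) of WT ML cells and 0.540% (0.315 to 0.863) of WT LP cells. In cluster 12 it was found in 0 of 43 WT cells, which allows a share of up to 6.98%, and in cluster 13 in 2 of 83. Unthinned, the WT shares were 20.6% in ML and 1.98% in LP.

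*Upk2* was not found more often in ML cells rich in *Upk3a*. In WT, the share of thinned ML cells with a *Upk2* UMI was 6.41% (5.87 to 6.98) where *Upk3a* was at 0, 7.26% (6.28 to 8.33) at 1 to 2 UMIs of *Upk3a*, 5.61% at 3 to 5, 4.94% at 6 to 9 and 4.30% (3.29 to 5.51) at 10 or more. The pooled intervals of the first and the last of these ranges did not overlap, but they did within each library, at 5.82 to 7.39 against 3.22 to 6.54 in library A and 5.46 to 7.07 against 2.60 to 5.66 in library B. In V943R the same shares were 6.32%, 6.13%, 6.71%, 4.67% and 5.86% (4.22 to 7.89), and the intervals of the first and last overlapped. Over 14176 WT ML cells from 2 libraries, thinned to the same depth, Pearson's r of log2 UMIs was −0.03 between both genes, which is no more than a description in counts this sparse. Over the 22 levels of clusters 1 to 11 in the WT libraries, r was 0.21.

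The genotypes were compared next. Over all cells, 16450 genes had at least 50 UMIs in the genotype with more, and 4.41% of them differed by 1.5-fold or more with both V943R libraries beyond both WT libraries. Of the 5 members, 2 had enough UMIs (*Upk3a* and *Upk2*), and neither met this rule over all cells. *Upk3a* was lower in both V943R libraries than in either WT library, with a log2 ratio of −0.24 (−0.25 to −0.23) and between −0.31 and −0.17 over the 4 pairs of libraries. *Upk2* was lower too, at −0.11 (−0.17 to −0.04), and between −0.16 and −0.05 over the pairs. Separation of the libraries alone was common, since at any fold both V943R libraries lay below both WT libraries for 22.5% of the tested genes. The median log2 ratio of all tested genes was 0.02. Fewer cells of a kind and less mRNA per cell cannot be told apart in a level over all cells, so the mix of clusters was held fixed. With the V943R level of each cluster weighted by the WT share of UMIs, *Upk3a* would stand at 2012 CPM, a log2 ratio of −0.36 to the WT value of 2580 CPM. With the WT levels and the V943R mix it would stand at 2771 CPM, a log2 ratio of 0.10. These parts of an arithmetic split thus had opposite signs for *Upk3a*. For *Upk2* the same log2 ratios were −0.01 and −0.08. Within a cluster, the split does not separate fewer cells rich in a gene from less mRNA per cell. *Upk3a* also took part in the clustering, so no cause is read from the split.

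By class, neither gene met the rule, which 2.83% of 11219 genes met in LP, 3.86% of 10525 in LI and 4.43% of 15157 in ML. *Upk3a* had a log2 ratio of −0.48 (−0.54 to −0.42) in LP, −0.23 (−0.27 to −0.20) in LI and −0.18 (−0.19 to −0.17) in ML, and in each class both V943R libraries lay below both WT libraries, as they did for 18.1% of the genes tested in LP, 22.5% in LI and 26.7% in ML. The LP and LI values moved with the cells of highest doublet score, which made up 48.5% of LI cells in WT and 50.6% in V943R but under 4% of LP and ML cells. Without them, *Upk3a* met the rule as lower in LP, at 326 and 350.2 CPM in WT and 222 and 170.0 CPM in V943R, a log2 ratio of −0.81 (−0.90 to −0.71), as did 0.754% of 10874 genes under the same filter. These LP levels are low, and no expression was read from the LP shares above. In LI the libraries of the genotypes then overlapped, with a log2 ratio of −0.09 (−0.15 to −0.03), and the ML value was −0.17. Without cluster 11, an alternative chosen after the data had been seen, the ML value was −0.27. *Upk2* stood at −0.13 (−0.64 to 0.37) in LP, 0.18 (−0.04 to 0.40) in LI, where the V943R libraries were higher for it and for 23.2% of the tested genes, and −0.09 (−0.16 to −0.02) in ML.

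Among clusters 1 to 11, *Upk3a* met the rule in cluster 11 alone, both with all cells kept and without those of highest doublet score. It went from 1528 and 1410 CPM in WT to 814 and 957 CPM in V943R, with no overlap, a log2 ratio of −0.72 (−0.78 to −0.65) and between −0.91 and −0.56 over the pairs of libraries. Without the cells of highest doublet score the log2 ratio was −0.77 (−0.84 to −0.70). In this cluster 3.17% of 10223 genes met the rule as lower in V943R, or 3.27% of 10108 without those cells, and 18.7% had V943R libraries below both WT libraries at any fold. Many of these genes had few UMIs: of the 1511 genes with at least 1000 UMIs in the genotype with more, a limit set after the data had been seen, 0.662% met it, and 7 had a lower log2 ratio than *Upk3a*. The share of cells with a thinned *Upk3a* UMI was 43.9% and 43.1% in WT and 25% and 30.4% in V943R, by library. Cluster 11 held 2863 WT cells and 670 V943R cells, and within 5 bins of UMIs per cell the log2 ratio was −1.66, −0.91, −0.68, −0.95 and −0.46 from the shallowest to the deepest. *Upk2* did not follow in cluster 11, at 72.9 and 74.4 CPM in WT and 71.5 and 88.0 CPM in V943R, a log2 ratio of 0.13 (−0.11 to 0.36).

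With all cells kept, the log2 ratios of *Upk3a* in the other luminal clusters were nearer to 0. Outside the luminal classes they were −1.25 (−1.50 to −1.01) in cluster 13 and −1.49 (−2.80 to −0.36) in cluster 12, where 36 and 8 UMIs were too few for the rule, and in both the libraries of the genotypes overlapped. The share of tested genes that met the rule was 2.91% and 2.99% in clusters 1 and 2, 3.93%, 3.04%, 3.31%, 3.44% and 3.54% in clusters 4 to 8, 5.55% in cluster 9 and 3.42% in cluster 10, and *Upk3a* met it in none of these, nor did *Upk2*, which had too few UMIs in cluster 2. The log2 ratio of *Upk3a* was −0.51 (−0.53 to −0.49) in cluster 7, −0.29 (−0.32 to −0.27) in cluster 5 and −0.29 (−0.31 to −0.26) in cluster 6, with the V943R libraries below the WT libraries in each. Cluster 1 stood at −0.52 and cluster 4 at −0.29, also with no overlap. At any fold, both V943R libraries were the lower ones for 17.4% of the genes tested in cluster 1, 23.1% in cluster 4, 21.4% in cluster 5, 23.4% in cluster 6 and 26% in cluster 7. In clusters 2, 8, 9 and 10 the libraries of the genotypes overlapped, with log2 ratios of −0.42, −0.08, −0.08 and −0.05. Without the cells of highest doublet score, cluster 1 had a log2 ratio of −0.66 (−0.77 to −0.55) and that of cluster 2 was −1.08 (−1.25 to −0.91), further from 0 than in cluster 11, but the libraries of the genotypes overlapped in both. Cluster 2 then stood at 253 and 871 CPM in WT and 221 and 306 CPM in V943R, so its value rested on WT library B. Cells with very many *Upk3a* UMIs were fewer in V943R in clusters 5, 6 and 7. The share of thinned cells with 10 or more *Upk3a* UMIs was 35.5% in WT and 24.5% in V943R in cluster 5, 29.1% and 17.5% in cluster 6, and 18.8% and 10.9% in cluster 7. *Upk2* was higher in V943R in cluster 6, at 44.3 and 38.8 CPM against 33.5 and 33.9 CPM, and lower in cluster 7, at 53.9 and 59.6 CPM against 64.9 and 67.0 CPM. At any fold, 19.4% of the genes tested in cluster 6 had both V943R libraries above both WT libraries, and 24.2% of those in cluster 10, where *Upk2* was lower, had them below.

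**Figure D4:**
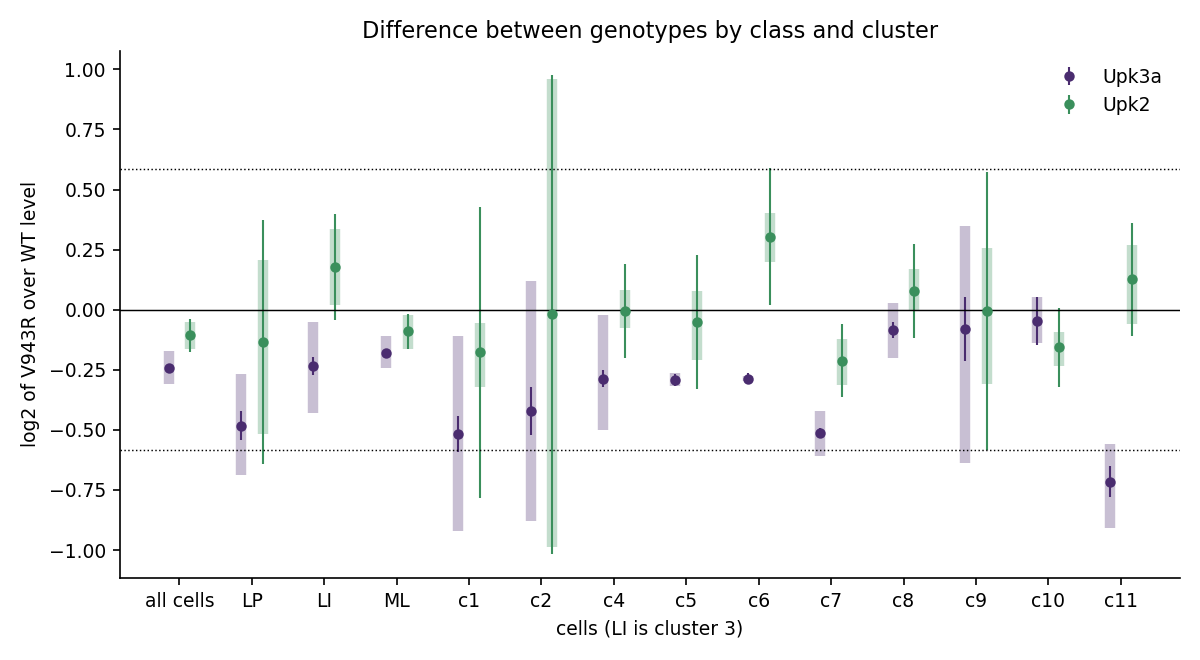
Log2 ratio of the V943R level to the WT level of *Upk3a* (purple) and *Upk2* (green), with points for the pooled libraries, thin lines for the 95% counting interval and wide bars for the range over the 4 pairs of libraries. Dotted lines mark a fold of 1.5, which only the point for *Upk3a* in cluster 11 passes, and cluster 3 is shown as LI.

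Markers of other cells were set beside these values. In ML the markers of immune cells summed to between 2.58 and 4.22 CPM in WT and between 4.63 and 6.70 CPM in V943R, endothelial markers to at most 1.22 CPM in any library, and 2 of the 4 mesothelial markers were at 0. The member *Upk3b* was 1 of these 4 and 1 of the 2 at 0, so this list was not independent of the family. In ML the 4 fibroblast markers summed to 14.6 and 13.3 CPM in WT and to 4.74 and 4.003 CPM in V943R. Most of this sum was *Dcn*, a matrix proteoglycan, at 13.6 CPM in WT and 3.94 CPM in V943R. *Dcn* was the only 1 of the 4 with enough UMIs in ML, and it met the rule, as did 1.57% of all ML genes tested as lower. Over all cells 3 of the 4 were tested, and their median log2 ratio was 0.47. There 1 met the rule as lower, with 1.17% of all genes. *Col3a1*, a fibrillar collagen, met the rule as higher over all cells, with 3.23% of all genes, at 4.29 CPM in V943R and 2.41 CPM in WT. In ML *Cd74*, a chaperone of antigen presentation, met it as higher with 2.86% of the genes, at 4.20 CPM in V943R and 2.29 CPM in WT. Basal markers summed to 22.3 and 23.7 CPM in WT LI and to 34.4 and 33.6 CPM in V943R LI. These sums were also higher in V943R in LP, and lower in ML. Markers of dividing cells summed to 57.7 and 49.2 CPM in WT LI and to 67.5 and 73.0 CPM in V943R LI. Their sums were also higher in V943R in ML, with overlapping libraries in LP. In LI 1 gene of each of these lists met the rule as higher, as did 2.83% of the LI genes. The part of all these cells in the *Upk3a* difference was not tested.

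*Upk3bl* (ENSMUSG00000006143, chromosome 5 from 136054492 to 136064326, plus strand), a gene related to *Upk3b* that starts 8004 bases beyond its end, is no member and was added after the data had been seen, since it gave 1640 UMIs. Among the ML clusters it was highest in cluster 10, where *Upk3a* was lowest. There *Upk3bl* stood at 29.8 and 36.4 CPM in WT and 43.7 and 54.2 CPM in V943R, in clusters 5 and 6 together at 4.02 and 3.22 CPM in WT and 9.45 and 6.85 CPM in V943R, and in cluster 11 at 1.12 and 1.014 CPM in WT. Cluster 10 held 48.3% of the WT *Upk3bl* UMIs. Among thinned WT ML cells, *Upk3bl* was found in 1.77% (1.49 to 2.09) of those with no *Upk3a* UMI and in 0 of 1372 with 10 or more, which allows a share of up to 0.219%. Over all cells it was higher in V943R, at 12.96 and 16.2 CPM against 9.95 and 9.92 CPM, a log2 ratio of 0.56 (0.42 to 0.70) that stopped short of the rule. How many genes had both V943R libraries above both WT libraries at any fold was not counted over all cells or in cluster 10. That share was 23.2% in LI and 19.4% in cluster 6. *Upk3bl* met the rule as higher in LI, where 2.83% of the tested genes did so, with a log2 ratio of 0.86 (0.39 to 1.34), and in clusters 5 and 6 together, with 1.98% of the tested genes, at 36 UMIs in WT and 76 in V943R. In the latter it reached 50 UMIs through V943R alone, the genotype where it was high, so nothing is read from that call. The levels of both genes were not opposite throughout: cluster 11 was the lowest ML cluster for *Upk3bl* and stood below clusters 4 to 8 for *Upk3a* in both WT libraries, and in cluster 10 *Upk3bl* had a log2 ratio of 0.57 while that of *Upk3a* was −0.05. Over the 22 WT levels, Pearson's r of *Upk3bl* with *Upk3a* was −0.41 on log2 of CPM plus 10 and −0.20 on log2 of CPM plus 1.

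**Figure D5:**
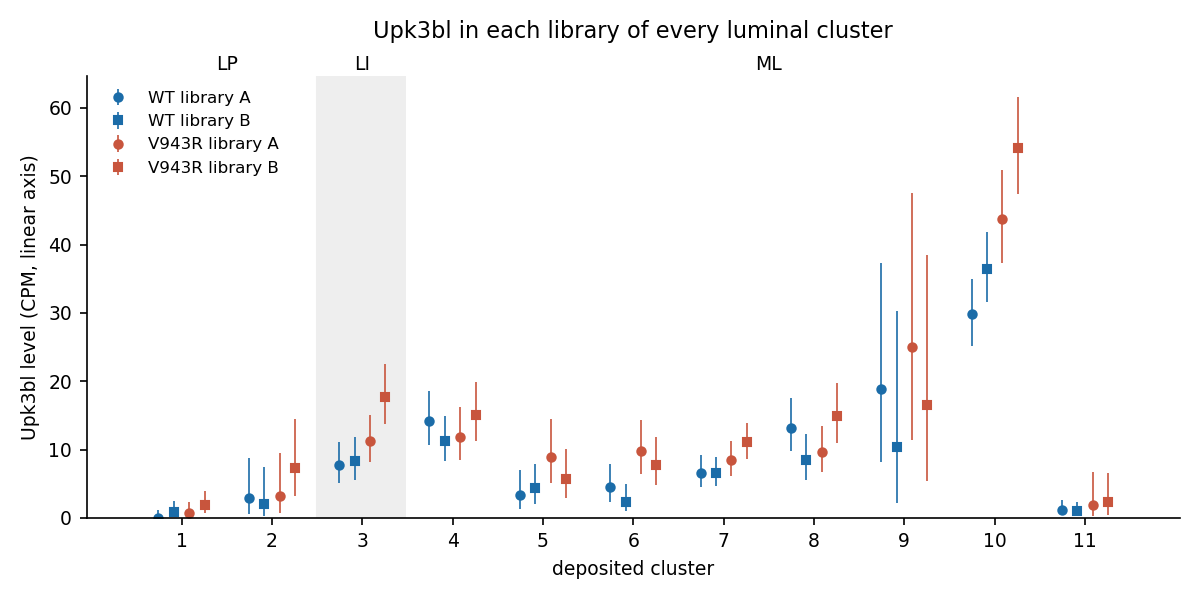
Level of *Upk3bl* in CPM (linear axis) for each library in luminal clusters 1 to 11, with 95% Poisson intervals. Cluster 10, the ML cluster with the least *Upk3a*, has the highest levels, and cluster 11 is near 1 CPM in WT.

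The genes whose levels ran most like those of the members were taken over the 22 WT levels (11 clusters in 2 libraries), among 11709 genes with at least 500 UMIs. The points share libraries and the clusters were drawn from these genes, so r is a description. For *Upk3a* these were *Mgst3* (r = 0.94), *Sv2c* (0.93), *Grb14* (0.91), *Ptgr1* (0.91), *Itih2* (0.91), *Crym* (0.90), *Fgb* (0.90), *Pir* (0.89), *Mt2* (0.88) and *Aim2* (0.87). *Mgst3* encodes a membrane glutathione transferase, *Ptgr1* a prostaglandin reductase, *Fgb* the beta chain of fibrinogen and *Mt2* a metallothionein. *Sv2c*, a synaptic vesicle protein, stood at 52.5 CPM in WT cluster 5 and 2.46 CPM in cluster 10, and *Mgst3* at 310.2 and 110.9 CPM. Of the 10 genes, 8 were also among the closest 10 in the V943R libraries. These genes differed between genotypes in both directions. By the rule over all cells, *Fgb* (log2 ratio −0.68), *Itih2* (−0.66) and *Pir* (−0.60) were lower in V943R, as were 1.17% of all tested genes. *Crym* (0.62) and *Aim2* (0.70) were higher, as were 3.23% of all tested genes, and the other 5 did not meet the rule. In cluster 11, where 44.5% of the 10223 tested genes had a log2 ratio below 0, those of the 10 ran in both directions. They were −1.23 for *Fgb*, −0.88 for *Pir*, −0.67 for *Itih2* (40 UMIs in V943R), −0.55 for *Grb14* and −0.36 (−0.79 to 0.04) for *Ptgr1*. *Mt2* (−0.10), *Mgst3* (−0.03) and *Sv2c* (0.01) were near 0, with overlapping libraries. *Crym* stood at 0.79 and *Aim2* at 0.95, the last with overlapping libraries. Over WT ML cells, the genes with the highest r with *Upk3a* were *Fgb* (0.46), *Cited1* (0.41), *Mt2* (0.40), *1810010D01Rik* (0.33) and *Mt1* (0.32). Negative r of like size occurred too, down to −0.50.

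For *Upk2* the 10 closest genes were *Qsox1* (r = 0.99), *Reep6* (0.97), *Ndufa7* (0.97), *Hp* (0.97), *Cd164* (0.97), *Rbm20* (0.97), *Cd200* (0.97), *2410015M20Rik* (0.97), *Tox2* (0.96) and *Lifr* (0.96). *Qsox1* encodes a sulfhydryl oxidase, *Hp* haptoglobin and *Lifr* the receptor of leukemia inhibitory factor. *Qsox1* stood at 80.0 CPM in WT cluster 1, 192.6 CPM in cluster 6 and 348 CPM in cluster 11. None of the 10 met the rule over all cells, which 4.41% of all tested genes met, and 6 were also among the closest 10 in the V943R libraries. Over single cells the highest r with *Upk2* was 0.04, too low to name a gene.

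Genes tied to the uroplakins elsewhere were taken as lists. Over all cells 4.41% of the 16450 tested genes met the rule in either direction. Lists this short may hold no such gene, so no list is read as unchanged. Of 29 other tetraspanins, 23 were tested over all cells and none met the rule in either direction, with a median log2 ratio of 0.01. *Cd9*, a tetraspanin of many epithelia, was the most abundant, at 2078 CPM in WT and 2177 CPM in V943R, and *Tspan13* stood at 887 and 1124 CPM. Of 16 genes listed for urothelial differentiation, not all of them regulators, 13 were tested over all cells and none met the rule, with a median of 0.07. *Gata3*, a zinc finger factor of luminal cells, was at 1071 and 1142 CPM, *Klf4* at 223 and 197 CPM and *Foxa1* at 136 and 123 CPM. In LP *Fabp4*, a fatty acid carrier, met the rule as higher in V943R, with 2.23% of the LP genes, but its 53 UMIs in V943R and 28 in WT brought it past the minimum of 50 through V943R alone, so nothing is read from the call. Of 21 genes of umbrella cells and of the traffic of plaques, 20 were tested and none met the rule over all cells, with a median of 0.06. *Krt20*, the keratin that marks umbrella cells, stood at 0.835 CPM in WT and *Snx31*, a sorting nexin found with uroplakins, gave 3 UMIs in WT and 1 in V943R. In LI 2 of the 17 tested met it as higher in V943R, with 2.83% of the LI genes: *Krt8*, a keratin of simple epithelia, at 1018 against 673 CPM, and *Sytl2*, a Rab27 effector, whose 70 UMIs in V943R and 34 in WT passed the minimum through V943R alone. Without the cells of highest doublet score, which were 48.5% and 50.6% of LI cells by genotype, *Krt8* met it at 973 against 615 CPM, as did 3.27% of 8231 tested genes, and *Sytl2* had too few UMIs. Of 8 genes listed for airway club cells, of which *Upk3a* marks a rare type, 5 were tested. Over all cells 2 met the rule as lower in V943R, with 1.17% of all genes. These were *Reg3g*, a lectin against bacteria, at 2.79 against 6.38 CPM, and *Cyp2f2*, a cytochrome, at 1.52 against 2.41 CPM. These data do not show which of the 8 genes that rare type expresses. *Scgb1a1* and *Scgb3a2*, secretory proteins that define club cells, gave 2 and 0 UMIs.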

How the data were processed

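Luminal cells of 1 pool of 3 mice per genotype were measured as 2 droplet libraries each. The authors deposited a signal table in which the UMIs of each cell had been multiplied by 1 factor, with cluster, class and library of each cell. The submitters' processing notes name CASAVA 1.8, bcl2fastq 2.20, GSNAP 2013-10-10 and GRCm38, without their roles. Here values were divided by the smallest nonzero value of the cell, which gave whole numbers for 100% of values within 0.02, used as UMIs and summed per library. No cell was removed, and scrublet called 1 cell, too few to be of use. No test was run, since each genotype was 1 pool. Genes were called by size: a fold of 1.5, at least 50 UMIs in the genotype with more, and separate libraries. The rule was checked only for recovering a fold of 2 in simulated counts whose libraries differed by counting error alone. How often it calls unchanged genes in these data was not measured. For shares, cells were thinned to 1000 UMIs (seed 1), which left out 45 WT and 252 V943R cells. Named genes were taken from the members, genes of the lists past the rule or most abundant in them, and the 10 (over levels, as log2 of CPM plus 10) and 5 (over cells) most like a member. The members and lists were chosen with earlier results of these data known. Alternatives were each library left out, TMM factors, means over cells, other denominators, minimums and depths, and doublet scores. The tools were scanpy 1.11.5, scipy 1.17.1, pandas 2.3.3, numpy 2.4.6 and matplotlib 3.10.9 under Python 3.11.15.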

Additional observations from a re-analysis of the deposited data

Results flagged for a closer look

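*Upk2* differed between genotypes in opposite directions by class and cluster, with every pair of libraries on the same side in each, although several of these differences were within counting error and none met the fold rule. Both V943R libraries lay on one side of both WT libraries for many genes in the same cells, as 23.2% of those tested in LI were higher and 26.7% in ML lower. The share was 19.4% (higher) in cluster 6, and 17.4%, 26% and 24.2% (lower) in clusters 1, 7 and 10. In LP and in clusters 2, 4, 5, 8, 9 and 11 the *Upk2* libraries of the genotypes overlapped. The log2 ratio of V943R to WT was 0.18 (−0.04 to 0.40) in LI and −0.090 (−0.16 to −0.02) in ML. Among the clusters, cluster 6 had a value of 0.30 (0.02 to 0.59) and cluster 7 one of −0.21 (−0.36 to −0.06). In cluster 10 it was −0.16 (−0.32 to 0.01), and in cluster 1 −0.18 (−0.79 to 0.43), on 51 UMIs in WT and 46 in V943R. The counting intervals of LI and of clusters 1 and 10 thus include 0, and as a mean over cells the cluster 1 value was 0.37. Without the cells of highest doublet score, the LI libraries of the genotypes overlapped, at 44.0 and 51.8 CPM in WT and 53.9 and 48.8 CPM in V943R, and the cluster 6 value was 0.24 (−0.06 to 0.55). The differences between these ratios were not tested. No group had enough libraries to look for a library apart from the others.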

How the results depend on the processing

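No paired analysis was possible, because the 2 libraries of each genotype came from 1 pool and had no pairing with those of the other genotype. Under 9 other settings *Upk3a* stayed lower in V943R over all cells (log2 ratio −0.31 to −0.19), in LP, LI and ML, and in clusters 1 to 7 and 11 (−0.89 to −0.62 in cluster 11). In clusters 8, 9 and 10 it was lower under 8, 6 and 8 of the 9. As a mean over cells the log2 ratio of *Upk3a* was −0.31 over all cells and −0.89 in cluster 11. Without cluster 11, added after the data had been seen, it was −0.27 in ML, and in 5 bins of depth, also added, −0.35, −0.63, −0.29, −0.29 and −0.26 in ML and −1.66, −0.91, −0.68, −0.95 and −0.46 in cluster 11.

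As means over cells the levels in WT and V943R were 2166 and 1750 CPM for *Upk3a* and 52.1 and 47.7 CPM for *Upk2*, and with the 20 top genes out of the denominator 3141 and 2636 CPM and 65.7 and 60.5 CPM. *Upk3a* in V943R was 2216 CPM without the cells of highest doublet score and 2225 CPM without the 10% of cells with fewest UMIs.

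The number of genes past the fold rule depended on its limits. Over all cells, 532 higher and 193 lower genes became 967 and 404 at 20 UMIs, 297 and 115 at 100 UMIs, and 68 and 40 at a fold of 2. In cluster 11, 276 and 324 became 586 and 656, 106 and 127, and 20 and 83, and 5 and 10 at 1000 UMIs, a limit added later. Leaving out 1 library gave 382 to 848 higher and 154 to 319 lower genes over all cells, and 113 to 599 and 169 to 750 in cluster 11. The cause of these shifts was not tested beyond the limits themselves. With 1 pool per genotype, the spread between mice was not measured, and *Upk1a*, *Upk1b* and *Upk3b* were too sparse to compare.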
